A study of Mus musculus with 4 samples.

Results

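The amino acid transporter genes described here are the rows of the count table whose symbols begin with Slc1a, Slc3a, Slc6a, Slc7a, Slc36a, Slc38a or Slc43a followed by a digit, which gave 64 of the 24391 genes. The symbols Slc7a6os, Slc36a1os and Slc6a19os match the pattern but name genes on the strand opposite a transporter gene. RNA-Seq was performed in Beko cells, a mouse leukemic progenitor T-cell line in which Notch signaling is constitutively active. In the GSI group, 2 libraries came from cells kept for 48 h in DAPT, a γ-secretase inhibitor (GSI) that stops the release of the Notch intracellular domain. In the washout group, 2 libraries came from cells that received the same 48 h of DAPT, were washed, and then grew for 24 h without it. The labels state 10 mg/ml DAPT, whereas the methods give the dose in μg per ml. All cells grew in a medium that the labels list with peptone, insulin and added nonessential amino acids. No library of cells washed and cultured in parallel without prior GSI was analysed here, so the return of Notch activity cannot be told apart from the wash and the longer culture. Nothing in the labels says that the 2 libraries of a group came from separate cultures, so p-values measure the spread between these libraries.

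Amino acids do not cross membranes unaided, and a dividing T-cell progenitor depends on carriers for the amino acids it builds into protein and for the glutamine it burns. Slc3a2 (CD98) is a heavy chain that carries no substrate itself but brings light chains of the Slc7 family to the plasma membrane, among them Slc7a5 for leucine and other large neutral amino acids and Slc7a11 for cystine. Slc1a5 and the Slc38 family move glutamine and small neutral amino acids, and Slc7a1 moves arginine and lysine. Carriers of the lysosome, such as Slc38a9 and Slc36a1, release amino acids from that compartment and take part in their sensing by the kinase complex mTORC1.

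Promoter sequences are shown for 4 members that the results below turn on, because each lies at an end of the range of fold changes or carries a role taken up below, and holds at least 1 match to the motifs searched. They run from 250 bases before to 20 bases after the transcription start in RefSeq (GRCm38.p6), written on the strand of the gene. Capitals mark CACGTG (the E-box), TGGGAA (the RBPJ hexamer) or TGATGNAA (the core of the amino acid response element), on either strand. The first is Slc1a4 (chr11:20332694-20332963, minus strand), which had the highest fold change among the members. The second is Slc6a19 (chr13:73692617-73692886, minus strand), which had the lowest fitted value. The third is Slc36a1 (chr11:55204090-55204359, plus strand), a lysosomal carrier, and the last is the cystine carrier Slc7a11 (chr3:50443594-50443863, minus strand).
Slc1a4: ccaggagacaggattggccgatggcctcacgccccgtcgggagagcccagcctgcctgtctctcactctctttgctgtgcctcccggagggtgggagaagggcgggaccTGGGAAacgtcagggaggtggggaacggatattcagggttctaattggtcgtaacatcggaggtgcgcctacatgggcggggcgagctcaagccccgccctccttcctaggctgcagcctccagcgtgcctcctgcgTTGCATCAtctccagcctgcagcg
Slc6a19: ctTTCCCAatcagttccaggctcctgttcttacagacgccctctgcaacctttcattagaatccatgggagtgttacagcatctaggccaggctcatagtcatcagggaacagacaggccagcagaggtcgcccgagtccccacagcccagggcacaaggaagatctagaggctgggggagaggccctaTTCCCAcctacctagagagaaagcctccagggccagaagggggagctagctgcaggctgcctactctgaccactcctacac
Slc36a1: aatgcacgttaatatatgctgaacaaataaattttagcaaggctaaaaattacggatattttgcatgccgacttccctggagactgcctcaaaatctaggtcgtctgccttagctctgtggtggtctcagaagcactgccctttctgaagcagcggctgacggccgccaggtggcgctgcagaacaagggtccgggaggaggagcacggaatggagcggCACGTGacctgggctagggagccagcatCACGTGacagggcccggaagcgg
Slc7a11: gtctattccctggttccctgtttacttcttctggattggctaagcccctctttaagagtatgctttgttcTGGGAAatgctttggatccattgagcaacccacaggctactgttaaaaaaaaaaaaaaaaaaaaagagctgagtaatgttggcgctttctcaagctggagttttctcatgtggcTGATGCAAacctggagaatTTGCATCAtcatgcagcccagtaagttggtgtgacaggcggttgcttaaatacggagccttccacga
In Slc1a4 the element TTGCATCA, the reverse complement of TGATGCAA, lies across the transcription start, and a TGGGAA lies upstream of it. Slc7a11 holds TGATGNAA on both strands, at bases 185 and 204 of the sequence. Both E-boxes of Slc36a1, at bases 220 and 248, lie next to the start. Slc6a19 holds TGGGAA on the opposite strand at 2 positions. Across 300-base windows that reach 50 bases past the start, RefSeq promoters were found for 19 of the 26 members that could be tested. The tested members without one were Slc1a5, Slc7a5, Slc38a1, Slc38a3, Slc43a3, Slc6a6 and Slc6a8. TGGGAA was found in 21.4% of the 28 promoters of tested members and in 25.6% of all promoters, CACGTG in 7.14% and 7.15%, and TGATGNAA in 14.3% and 3.97%. The TGATGNAA matches lay in only 4 promoters, from Slc1a4, Slc7a11 and Slc7a7. Of these genes, Slc1a4 rose, whereas Slc7a11 and Slc7a7 did not pass the edgeR test. Among the 12 promoters of members past both thresholds given below, TGATGNAA was found in 1 (8.33%).

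The total counts of the 4 libraries ranged from 13716199 to 36364200. Log2 CPM (counts divided by library size after TMM scaling, a factor for each library) correlated at 0.988 to 0.990 within a group and at 0.935 to 0.947 between groups. A count of 3, used as the limit of detection and covering counting error only, corresponds to 0.0881 to 0.223 CPM. All 15 markers of T-cell progenitors listed could be tested. Among them Ptcra (2.37 in log2) and Notch1 (1.14) rose past both thresholds, and Gata3 (-1.67), Cd8b1 (-1.29) and Cd4 (-1.16) fell. None of 6 B-cell markers could be tested, and 5 of 6 mast cell markers had 0 counts in every library. The exception was Cpa3, and the summed mast cell markers therefore stood at 175.6 and 77.4 CPM in the GSI libraries but at 9.34 and 2.23 CPM after washout. The summed level of 7 myeloid markers, nearly all from the integrin Itgam, was likewise 49.1 and 38.2 CPM in GSI against 5.49 and 4.98 CPM after washout. Among 6 erythroid markers, 4 had 0 counts in every library, and Gata1 and Klf1 fell, with a sum of 12.0 and 10.4 CPM in GSI against 4.99 and 4.39 CPM after washout. The sum of 5 stroma markers was 47.6 and 45.1 CPM against 27.9 and 36.5 CPM. Most of it came from Pdgfrb, at 44.5 and 42.1 CPM against 26.5 and 35.0 CPM (-0.51 in log2). Col1a1 among them fell from 29 and 18 counts to 4 and 0, and Col1a2 did not pass the edgeR test (adjusted p = 0.202). The part of these markers in the results below was not tested. In bulk libraries, fewer cells expressing a gene and less RNA per cell cannot be told apart.

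Most members were silent or nearly so in Beko cells. In all libraries, 13 of the 64 had 0 counts, and another 23 had between 1 and 10 counts in the 4 libraries together, never more than 4 in any of them. None of the 5 glutamate transporters of the Slc1 family (Slc1a1, Slc1a2, Slc1a3, Slc1a6, Slc1a7) and none of the 3 monoamine transporters (Slc6a2, Slc6a3, Slc6a4) could be tested, and their counts reached 3 and 1 at most. Slc7a3 and Slc7a4, both of the cationic branch of Slc7, had more than 10 counts in sum but did not pass the filter on low counts. Slc7a3 had 10 and 2 counts in the GSI libraries and 13 and 8 after washout, and Slc7a4 had 16 and 5 against 7 and 2. The remaining 26 members were tested, among them Slc7a6os. A member that passed the filter through its level in one group alone could hardly fail to differ, so the shares below describe the tested members, not all 64.

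Upon washout, 5 of the 26 tested members rose and 6 fell past both thresholds, a difference of more than 1 in log2, either way, together with an adjusted p below 0.05. Both directions together made up 42.3% of the tested members, beside 19.5% of all genes. Taken apart they were 19.2% and 23.1% of the tested members, beside 7.74% and 11.7% of the 12266 genes tested in all (950 and 1437 genes). The genes that rose were Slc1a4, Slc7a1, Slc7a5, Slc6a9 and Slc1a5, and those that fell were Slc6a19, Slc6a20a, Slc6a20b, Slc43a2, Slc38a9 and Slc6a8. The adjusted p-value alone was under 0.05 for 8 higher and 9 lower members (65.4% of those tested), beside 27% and 25.4% of all genes, or 52.5% in both directions. In 10 members (38.5%) both washout libraries lay above both GSI libraries and in 12 (46.2%) both lay below, beside 38.2% and 39.1% of all genes, so this separation by itself was about as frequent as in the whole table. The median log2 fold change of the tested members was -0.27, and that of all genes was -0.01. Scaling by the total count lowered the median of all genes by 0.20 on the log2 scale and gave 4 higher and 8 lower members, against 587 and 1961 of all genes. The plot of fold changes shows all 26.

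**Figure D1:**
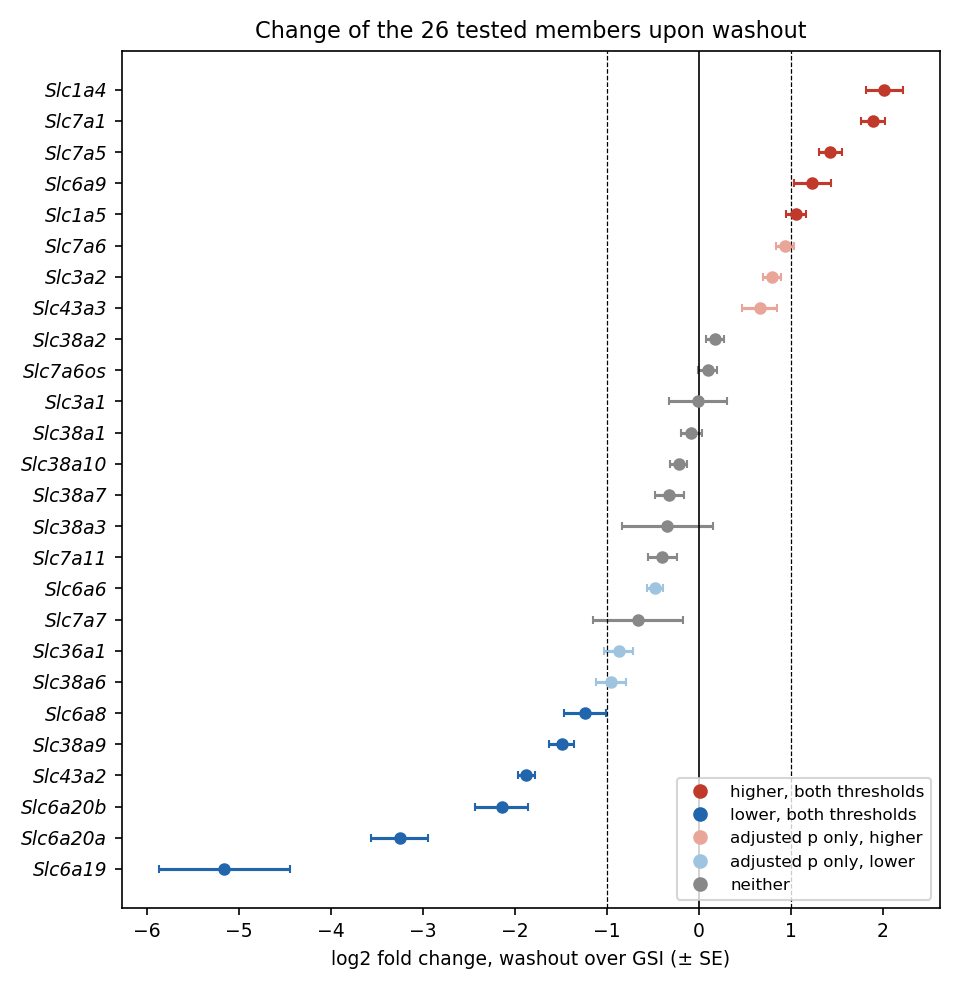
Log2 fold change of washout over GSI (x axis) for the 26 tested members (y axis), with bars of 1 standard error from edgeR (2 libraries a group) and dashed lines at -1 and 1. The values run from -5.16 for Slc6a19 to 2.01 for Slc1a4, with 10 above and 16 below 0.

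The leucine carrier Slc7a5 rose past both thresholds and its heavy chain Slc3a2 was higher at the adjusted p alone, whereas the call of the cystine carrier Slc7a11 depended on the test. Slc7a5, the light chain for leucine and other large neutral amino acids (chromosome 8, 124405052 to 124431594, mm9), stood at 110.7 and 120.8 CPM in the GSI libraries and at 284.5 and 338.2 CPM after washout. Both washout libraries were more than double either GSI library. The log2 fold change of Slc7a5 was 1.43 (standard error 0.123, adjusted p = 0.000467). Slc3a2, the heavy chain (chromosome 19, 8781372 to 8797859), stood at 137.4 and 134.0 CPM in the GSI libraries and at 223.5 and 247.9 CPM after washout. Its groups did not overlap, and its log2 fold change was 0.80 (standard error 0.0999, adjusted p = 0.00135), which lies under the fold threshold. Slc7a6, a light chain that exchanges cationic for neutral amino acids, stood at 57.8 and 54.6 CPM in the GSI libraries and at 113.4 and 101.5 CPM after washout. Its log2 fold change was 0.93 (standard error 0.101, adjusted p = 0.00084), also under the fold threshold, and it was 1.01 without washout replicate 2. Slc7a11, the cystine and glutamate exchanger (chromosome 3, 50168858 to 50247535), stood at 362.9 and 312.6 CPM in the GSI libraries and at 291.7 and 220.9 CPM after washout. Both washout libraries of Slc7a11 were the lower ones, but libraries of one group differed almost as much as the groups. The edgeR estimate for Slc7a11 was -0.40 (standard error 0.159, adjusted p = 0.0781). Its adjusted p was 0.0401 with DESeq2 and 0.0231 under total-count scaling, and with a library left out it ran from 0.00867 to 0.307. The other partners of Slc3a2 were low. Slc7a7 had 25 and 20 counts in the GSI libraries and 17 and 12 after washout and overlapped between groups in CPM, Slc7a8 had 1 count in 2 libraries, and Slc7a10 had 0 counts in every library. Slc3a1, the heavy chain of kidney and gut, had 91 and 27 counts in the GSI libraries and 79 and 33 after washout. The log2 fold change of Slc3a1 was -0.01 (standard error 0.315), and its partner Slc7a9 had 1 count in a single library. On the other strand, exons of Slc3a1 share 608 bases with Prepl, and those of Slc7a7 share 226 with Oxa1l. In the GSI libraries Prepl stood at 28.1 and 28.4 CPM and Oxa1l at 67.5 and 59.7 CPM. After washout they stood at 28.2 and 25.5 CPM and at 59.7 and 68.5 CPM. Their part in the counts of Slc3a1 and Slc7a7 was not tested.

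Levels of different genes can be set side by side per length of their exons, here as CPM per kb of exon. On this scale Slc7a5 made up 39.6% and 44.4% of the light chains of Slc3a2 in the GSI libraries and 58.9% and 67.1% in the washout libraries. Slc7a11 made up 40.5% and 35.9% in GSI and 18.9% and 13.7% upon washout, so that it lay above Slc7a6 in both GSI libraries and below it in both washout libraries. Slc7a6 kept a share between 18.9% and 22.1% in the 4 libraries. Relative to the heavy chain, the per-length level of Slc7a5 was 0.678 and 0.759 in GSI and 1.07 and 1.15 upon washout, and that of Slc7a11 was 0.695 and 0.614 in GSI and 0.343 and 0.234 upon washout. Summed over the 6 light chains, the ratio to Slc3a2 was 1.71 in both GSI libraries and 1.82 and 1.71 upon washout. The sum of the light chains relative to the heavy chain was thus similar in the groups, whereas the shares of Slc7a5 and Slc7a11 did not overlap between them. These ratios carry no test, and they depend on the annotated exon lengths, which are 3515 bases for Slc7a5 and 11245 for Slc7a11.

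**Figure D2:**
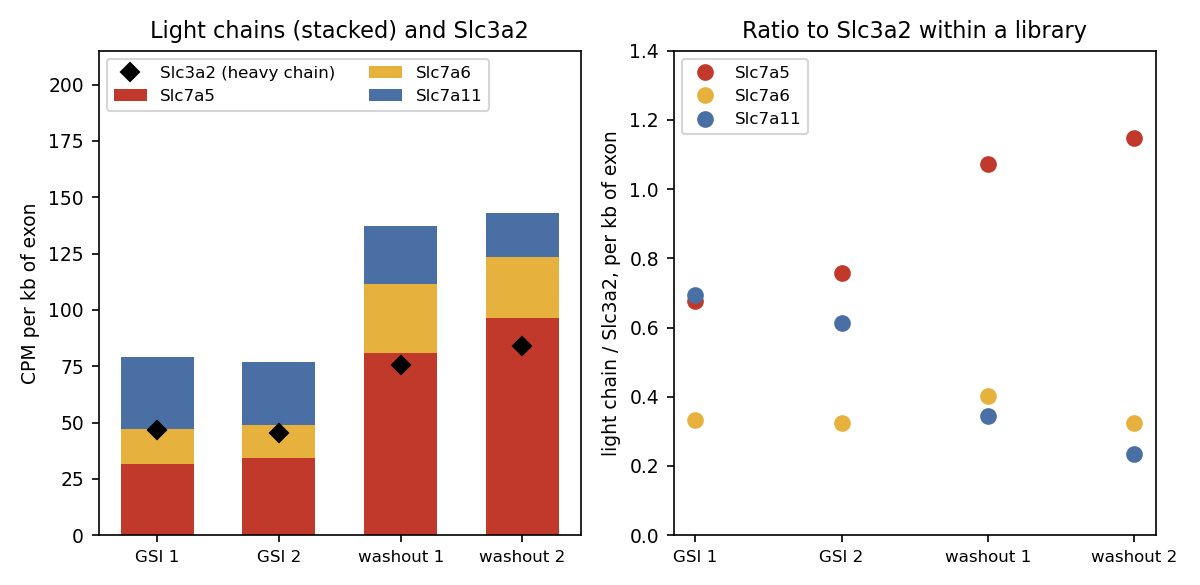
Left, CPM per kb of exon (y axis) of the light chains Slc7a5, Slc7a6 and Slc7a11 as stacked bars and of the heavy chain Slc3a2 as a diamond, for each library (x axis). Right, the ratio of each light chain to Slc3a2 in the same library, where Slc7a5 goes from 0.678 and 0.759 in GSI to 1.07 and 1.15 upon washout.

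Among the carriers of cationic and small neutral amino acids, the tested members of Slc1 and the only tested cationic transporter rose. Slc7a1, the main arginine and lysine transporter of most cells (chromosome 5, 149138986 to 149211480), stood at 35.8 and 44.9 CPM in the GSI libraries and at 143.3 and 154.9 CPM after washout. The groups were far apart compared with the spread within them. The log2 fold change of Slc7a1 was 1.89 (standard error 0.133, adjusted p = 0.000343), a 3.71-fold rise. Slc1a4, an exchanger of alanine, serine and cysteine (chromosome 11, 20202183 to 20232716), stood at 7.56 and 8.77 CPM in the GSI libraries and at 27.5 and 38.3 CPM after washout. Its log2 fold change, 2.01 (standard error 0.201, adjusted p = 0.000676), was the highest among the tested members. Slc1a5, the related exchanger of glutamine (chromosome 7, 17366695 to 17383623), stood at 98.7 and 109.1 CPM in the GSI libraries and at 205.1 and 226.3 CPM after washout. The groups of Slc1a5 were well separated, but the log2 fold change, 1.05 (standard error 0.106, adjusted p = 0.000694), sat at the threshold. Leaving out GSI replicate 1 or washout replicate 2 gave 0.98 in each case, and total-count scaling gave 0.86. Slc6a9, a glycine transporter (chromosome 4, 117507111 to 117547803), stood at 8.84 and 8.63 CPM in the GSI libraries and at 17.3 and 24.2 CPM after washout. The washout libraries of Slc6a9 differed between themselves yet both exceeded GSI. The log2 fold change of Slc6a9 was 1.23 (standard error 0.199, adjusted p = 0.0033), and 0.98 without washout replicate 2. Exons of Slc6a9 share 1429 and 375 bases with gene models of Ccdc24, 511 with Gm17114 and 46 with B4galt2, all on the other strand. The strand setting of the counting is not given in the sources used here. Ccdc24 itself was low, at 0.469 and 1.16 CPM in the GSI libraries and 0.881 and 0.967 CPM after washout. B4galt2 stood at 1.25 and 1.99 CPM in the GSI libraries and at 0.587 and 0.446 CPM after washout. The part of these overlaps in the values of Slc6a9 was not tested.

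**Figure D3:**
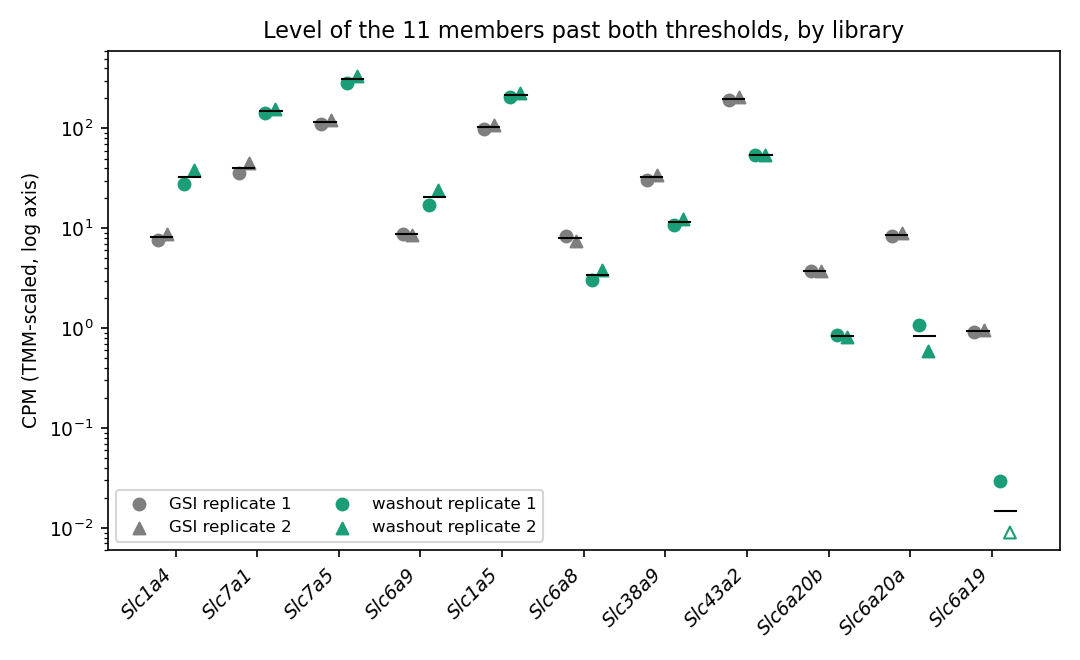
CPM on a log axis (y axis) in each of the 4 libraries for the 11 members past both thresholds (x axis), with black lines at the group means. In each member both washout libraries lie on the same side of both GSI libraries, and the open triangle marks the library in which Slc6a19 had 0 counts.

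Of the 6 members that fell, Slc43a2 had the highest CPM in GSI. Slc43a2, a facilitative carrier of leucine and other large neutral amino acids (chromosome 11, 75345196 to 75391077), stood at 190.9 and 206.6 CPM in the GSI libraries and at 53.9 and 54.4 CPM after washout. This was the most precise of the called changes, with replicates close together, and amounted to -1.88 in log2 (standard error 0.0957, adjusted p = 0.000281). A carrier of leucine thus fell while the leucine light chain Slc7a5 rose. Per kb of exon, the level of Slc43a2 was 19.0 and 20.6 in GSI against 31.5 and 34.4 for Slc7a5, and 5.36 and 5.42 upon washout against 81.0 and 96.2 for Slc7a5. Slc43a3, a member of the same family that is known as a carrier of nucleobases, stood at 13.5 and 11.1 CPM in the GSI libraries and at 22.1 and 16.6 CPM after washout. The change of Slc43a3 was 0.66 in log2 (adjusted p = 0.0287 in edgeR), under the fold threshold. Under total-count scaling it was 0.46, with an adjusted p of 0.0923. Slc43a1 never exceeded 3 counts.

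Of 3 tested carriers in the lysosomal or proton-coupled group, 1 fell past both thresholds. Slc38a9, the lysosomal carrier that senses arginine for mTORC1, stood at 30.6 and 34.4 CPM in the GSI libraries and at 10.8 and 12.3 CPM after washout. The groups did not overlap, and the log2 fold change of Slc38a9 was -1.49 (standard error 0.139, adjusted p = 0.000569). Its symbol had no match in the annotation used for positions and lengths. Slc36a1, a proton-coupled lysosomal carrier of small neutral amino acids (chromosome 11, 55017852 to 55049832), stood at 18.2 and 20.9 CPM in the GSI libraries and at 10.0 and 11.4 CPM after washout. Its log2 fold change, -0.87 (standard error 0.155, adjusted p = 0.00476), lay within the fold threshold. Slc38a7, a lysosomal carrier of glutamine and asparagine, stood at 11.7 and 12.0 CPM in the GSI libraries and at 9.19 and 9.82 CPM after washout, and its log2 fold change of -0.32 (adjusted p = 0.13) did not pass the test, whereas under total-count scaling the adjusted p was 0.0314. The relatives Slc36a2, Slc36a3 and Slc36a4 never exceeded 4 counts.

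The 3 tested members of the Slc6 branch for neutral amino acids fell, each from a low level. Slc6a19 passed the filter only through its GSI libraries, so its fall was close to fixed in advance. With at least 10 counts required in every library, only Slc6a20b of the 3 could be tested (-2.18 in log2). Slc6a20a, a carrier of proline and related imino acids (chromosome 9, 123545240 to 123588003), stood at 8.44 and 8.91 CPM in the GSI libraries and at 1.09 and 0.595 CPM after washout. Its log2 fold change was -3.25 (standard error 0.311, adjusted p = 0.000605). Slc6a20b, its neighboring copy on the same chromosome (123502938 to 123541683), stood at 3.75 and 3.70 CPM in the GSI libraries and at 0.852 and 0.818 CPM after washout, a change of -2.14 in log2 (standard error 0.291, adjusted p = 0.00174). Reads of these related copies could be divided between them by the alignment, so their individual values are uncertain. Exons of Slc6a20a also share 415 bases with Gm17120, 22 with Gm17200 and 22 with the chemokine receptor gene Ccr9, all on the other strand. Ccr9 stood at 279.6 and 247.2 CPM in the GSI libraries and at 30.3 and 17.8 CPM after washout, a change in log2 of -3.43, and its part in the values of Slc6a20a was not tested. Slc6a20b shares no annotated exon with another gene. Slc6a19, a carrier of neutral amino acids best known from gut and kidney (chromosome 13, 73817193 to 73842313), had 29 and 14 counts in the GSI libraries and 1 and 0 after washout. As a ratio of the summed counts at equal depth, this was 43.8 times as much in GSI, with an exact 95% interval from 7.46 to 1771 that covers counting error only. The adjusted p-value of Slc6a19 was 0.00187, and its fitted log2 fold change of -5.16 depends on the prior count. The neighboring Slc6a18 had 1 and 1 counts in the GSI libraries and 0 and 0 after washout.

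Carriers of creatine and taurine, which are not amino acids of proteins, were lower as well. Slc6a8, the creatine transporter (chromosome X, 70918489 to 70927841), stood at 8.40 and 7.54 CPM in the GSI libraries and at 3.02 and 3.87 CPM after washout. The log2 fold change of Slc6a8 was -1.24 (standard error 0.231, adjusted p = 0.00573), and -0.90 once GC content and length were corrected for. Slc6a6, the taurine transporter, stood at 135.6 and 144.8 CPM in the GSI libraries and at 102.1 and 99.1 CPM after washout. With a log2 fold change of -0.48 (adjusted p = 0.00622), Slc6a6 fell by less than the fold threshold. Slc6a11, Slc6a12 and Slc6a13, carriers of GABA or betaine, never exceeded 2 counts.

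The Slc38 family held more counts than any other. Of its 7 tested members, Slc38a9 fell past both thresholds (above), Slc38a6 was lower at the adjusted p alone, and the other 5, among them the abundant carriers of glutamine and small neutral amino acids, did not pass the edgeR test. Slc38a1 (chromosome 15, 96401849 to 96473344) had the highest count of all members in every library, at 551.5 and 519.3 CPM in the GSI libraries and 527.2 and 483.8 CPM after washout. The groups of Slc38a1 overlapped, and the log2 fold change was -0.08 (standard error 0.111, adjusted p = 0.563). It was 0.20 once GC content and length were corrected for. Slc38a2, its neighbor on the same chromosome (96517825 to 96530129) and a carrier known to be induced when amino acids are short, stood at 344.7 and 353.8 CPM in the GSI libraries and at 403.6 and 384.4 CPM after washout. The log2 fold change of Slc38a2 was 0.17 (standard error 0.0996, adjusted p = 0.188), and -0.02 under total-count scaling. Slc38a4, which follows on chromosome 15 from 96825254 to 96886387, had 0 counts in every library. Slc38a10 stood at 208.1 and 209.7 CPM in the GSI libraries and at 176.9 and 181.9 CPM after washout, and its log2 fold change of -0.22 (adjusted p = 0.0837) did not pass the test. With total-count scaling the adjusted p of Slc38a10 was 0.00937, and its exons share 367 bases with Gm11769 on the other strand. Slc38a6 stood at 12.1 and 12.8 CPM in the GSI libraries and at 6.23 and 6.62 CPM after washout. The change of Slc38a6 was -0.96 in log2 (adjusted p = 0.00453 in edgeR), just inside the fold threshold, and -1.15 under total-count scaling, past both thresholds. Slc38a3, a glutamine carrier, had 102 and 20 counts in the GSI libraries and 81 and 16 after washout, and in both groups the shallower library held the lower CPM. Slc7a6os, which is no transporter gene, had a log2 fold change of 0.09 (adjusted p = 0.471).

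The members as a whole took 0.261% and 0.254% of the counts in GSI and 0.252% and 0.249% upon washout. With TMM scaling their summed level was 2404 ± 18.2 CPM in the GSI libraries and 2682 ± 10.1 CPM after washout (SD, n = 2), whereas with total-count scaling it was 2576 in GSI and 2504 upon washout, so the direction of this sum depended on the scaling. The 4 members with the most counts held between 54.4% and 60.7% of all member counts in a library.

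Per kb of exon, the order of the members differed between the groups. In GSI the per-length level was highest for Slc38a2 (74.5 and 76.5 CPM per kb), followed by Slc38a1 (65.7 and 61.9), Slc3a2 (46.5 and 45.3) and Slc7a5 (31.5 and 34.4), with no overlap between these 4. The libraries of Slc7a5, Slc38a10, Slc7a6os and Slc7a11 overlapped with their neighbors in this order. Upon washout Slc7a5 came first (81.0 and 96.2 CPM per kb), and it could not be separated from Slc38a2 (87.3 and 83.1), nor Slc38a2 from Slc3a2 (75.5 and 83.8). These were followed by Slc38a1 (62.8 and 57.7) and Slc1a5 (49.4 and 54.5). Slc43a2 moved from place 10 to place 13 among the 25 tested members with a known length, Slc1a4 from place 17 to 12, and Slc6a20a from 14 to 22. The plot of per-length levels shows these shifts.

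**Figure D4:**
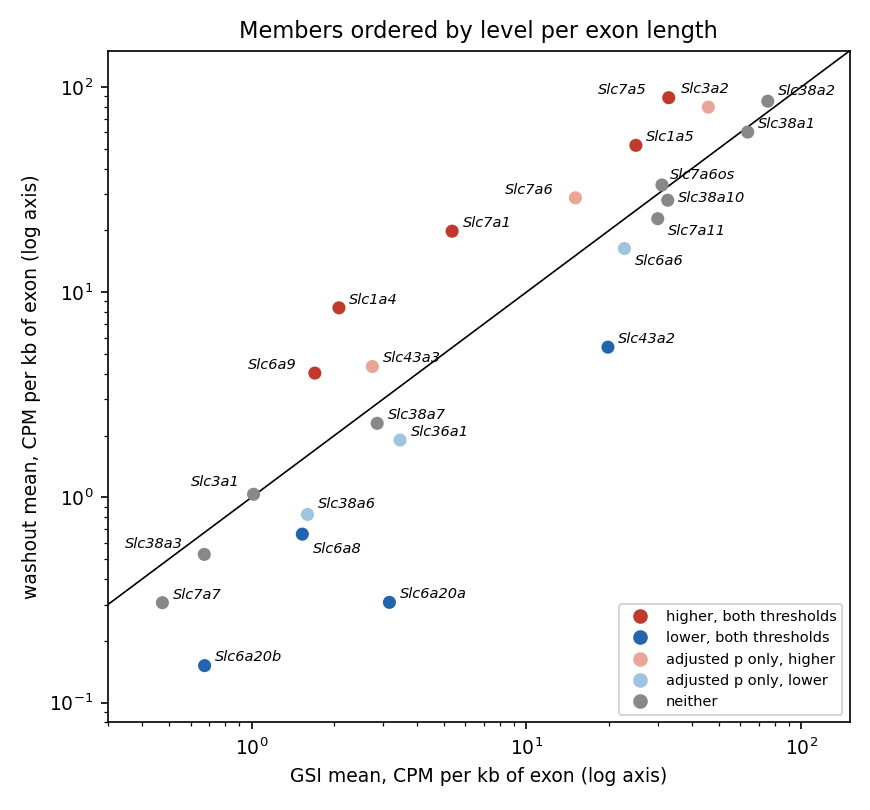
Mean CPM per kb of exon in GSI (x axis) and upon washout (y axis), both on log axes, for 24 tested members, with the line of equal level. Slc6a19, at 0.00293 CPM per kb upon washout, and Slc38a9, which has no annotated length, are left out, and colors follow the calls of the edgeR test.

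Of the genes that pass the supply of amino acids on to mTORC1, those past both thresholds were sestrin and Castor genes, and all of them were lower. A list of 34 symbols held 29 genes that could be tested, of which 0 were upregulated and 5 downregulated past both thresholds (edgeR, and likewise 0 and 5 with DESeq2). The 5 are 17.2% of the tested genes of this list, beside 11.7% of all genes, and the 0 stands beside 7.74% of all genes. The list had a median log2 fold change of -0.08 beside -0.01 for all genes. At an adjusted p-value alone, 5 were higher (17.2%) and 9 lower (31%), beside 27% and 25.4% of all genes. The 5 that fell past both thresholds were all of the tested sestrin and Castor genes, grouped here as sensors of leucine or arginine. Their log2 fold changes ran from -1.13 to -1.85. Sestrins and the Castor proteins, encoded by Gatsl2 and Gatsl3, hold back mTORC1 through the complex GATOR2. The group name does not mean that each of them senses leucine or arginine. Sesn1 stood at 223.5 and 193.8 CPM in the GSI libraries and at 93.7 and 89.3 CPM after washout, a change of -1.19 in log2 (standard error 0.109, adjusted p = 0.000548). Sesn3 stood at 125.5 and 134.1 CPM in the GSI libraries and at 56.0 and 50.9 CPM after washout, a change of -1.28 in log2 (adjusted p = 0.000397). Gatsl2 stood at 19.5 and 14.1 CPM in the GSI libraries and at 6.20 and 4.76 CPM after washout. Gatsl3 had 66 and 21 counts in the GSI libraries and 19 and 5 after washout. Gatsl3, at -1.85 the lowest of the 5, passed the filter through its GSI libraries, so its fall was close to fixed in advance. With at least 10 counts required in every library, Gatsl3 could not be tested and 4 genes of the list were lower. Sestrin genes also respond to p53 and to FoxO factors, so the list name covers only a part of what they are known for. None of the 5 passed glmTreat, which tests against the fold threshold itself. In mTORC1 itself, Akt1s1 was higher (0.68, adjusted p = 0.00295) under the fold threshold, whereas the kinase and its partner had log2 fold changes of -0.005 for Mtor and -0.03 for Rptor, neither of which passed the test. In GATOR2, Seh1l (0.88) and Sec13 (0.79), which also serve the nuclear pore, were higher and Wdr59 (-0.42) was lower at an adjusted p-value under 0.05, all within the fold threshold.

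**Figure D5:**
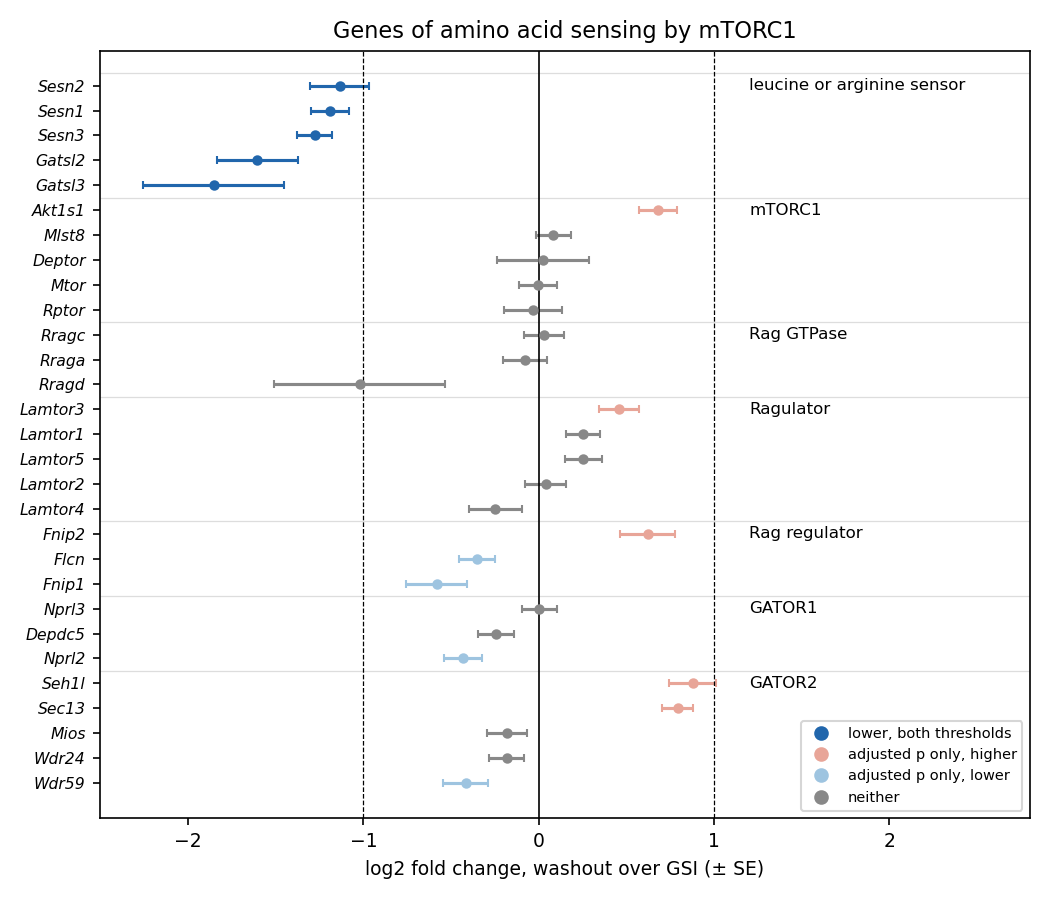
Log2 fold change of washout over GSI (x axis) with bars of 1 standard error for the 29 tested genes of amino acid sensing by mTORC1 (y axis), grouped by role, with dashed lines at -1 and 1. The 5 genes at the top, the sestrin and Castor genes grouped as leucine or arginine sensors, lie between -1.85 and -1.13.

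A list of 22 other carriers of amino acids or peptides outside the families above held 16 genes that could be tested. Of these 0 rose and 6 fell past both thresholds in edgeR, against 0 and 3 with DESeq2. The 6 are 37.5% of the tested genes of the list, beside 11.7% of all genes, and the 0 that rose stands beside 7.74%. A gene that passed the filter through its GSI level alone could hardly fail to fall, so this share describes the tested genes only. With at least 10 counts required in every library, 3 were lower. The adjusted p-value alone was under 0.05 for 3 higher (18.8%) and 8 lower (50%) genes, beside 27% and 25.4%. Their median log2 fold change was -0.52. Ctns, which exports cystine from lysosomes, stood at 21.5 and 20.1 CPM in the GSI libraries and at 9.22 and 9.22 CPM after washout, a change of -1.18 in log2 (standard error 0.138, adjusted p = 0.00107). Slc17a7, a vesicular glutamate transporter, stood at 4.22 and 2.53 CPM in the GSI libraries and at 0.822 and 0.818 CPM after washout. The related Slc17a8 had 22 and 10 counts in the GSI libraries and 4 and 0 after washout, and the peptide carrier Slc15a1 had 17 and 9 against 3 and 3, so that both rest on few reads. The lysosomal exporters were lower at an adjusted p-value under 0.05 in 3 of 3 genes (Ctns, Pqlc2 and Slc17a5). The mitochondrial carriers went both ways, with Slc25a15 for ornithine at 0.78 and Slc25a38 for glycine at 0.74 on the log2 scale, both with an adjusted p-value under 0.05, and Slc25a18 for glutamate at -1.57.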

How the data were processed

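Per the methods, trimGalore was used for trimming and HISAT2 2.2.1 for alignment to mm9, with the authors reporting a single alignment per read and allowing only short introns, and counting per gene with summarizeOverlaps. The deposited values are raw counts, and all 4 columns of the table were used. The limit on introns can cost reads at widely spaced exons, so per-length levels of different genes are approximate. Testing used edgeR 4.0.16 (R 4.3.3) with filterByExpr, TMM factors and the two-sided quasi-likelihood test, fitted on all 12266 genes that passed the filter, without covariates, with Benjamini-Hochberg adjustment over all of them. Thresholds are those of the methods. Standard errors follow from the log2 estimate and its F statistic. Scripts were tested on simulated data. Positions and lengths come from GENCODE vM1 (mm9), which matched 20641 of the symbols and 61 of the 64 members. The members, lists and tests were chosen with earlier results of these data known, and roles from general knowledge. Every called member and Slc3a2, Slc7a11, Slc38a1 and Slc38a2 are given in full, and every other tested member in short. The values of 1 untested member are not reported here. Alternatives were DESeq2 1.42.0, RLE or total-count scaling, other filters, thinning, correcting for GC content and length, a replicate block, other thresholds and leaving out each library.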

Additional observations from a re-analysis of the deposited data

How the results depend on the processing

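Of the 11 members past both thresholds, all kept their call with DESeq2, RLE scaling, no filter beyond 1 count, thinning and the replicate block. Under total-count scaling Slc1a5 lost it (0.86), and Slc36a1 (-1.07) and Slc38a6 (-1.15) passed both thresholds as well. Slc6a8 lost its call after the correction for GC content and length (-0.90, and -0.93 with the replicate block). The correction for GC content and length could test 10 of the 11, without Slc38a9, which has no annotated length. With at least 10 counts required in every library, 9 could be tested, without Slc6a19 and Slc6a20a, and all 9 kept their call. With glmTreat 8 remained, and Slc1a5, Slc6a9 and Slc6a8 did not. Leaving out each library gave 4 to 5 higher and 6 lower members. In these fits the lone library of a group is assumed to vary like the others. In both groups replicate 1 was the deeper library, and same-numbered libraries deviated together (r = 0.50 across the genes tested), but the labels tie the numbers to nothing else. With the replicate block 981 genes were higher and 1576 lower, with 5 and 6 members, and Slc7a11 (-0.41) and Slc38a10 (-0.22) then had an adjusted p of 0.000345 and 0.0255 in edgeR, with no other tested member changing sides of 0.05.

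Counts that moved by more than 1.5 times were as follows. Total-count scaling gave 587 higher genes, the adjusted p alone 3315 higher and 3120 lower genes with 8 higher members, and glmTreat 308 and 501 genes with 3 higher members. Of the mTORC1 list, 1 gene was higher after the GC and length correction, with and without the replicate block, 5 were higher and 9 lower at the adjusted p alone, and 0 were lower in glmTreat. Leaving out each library gave 0 to 1 higher genes of this list. Of the other carriers, 3 were lower with DESeq2 and 3 with at least 10 counts in every library, 0 in glmTreat, 3 higher at the adjusted p alone, and 3 to 5 lower without a library. The median of the members was -0.47 under total-count scaling, -0.065 after the GC and length correction and -0.094 with the replicate block added. Signs turned for some members with small changes in the main fit. Under total-count scaling these were Slc38a2 (-0.025) and Slc7a6os (-0.11). After the GC and length correction they were Slc38a1 (0.20) and Slc38a10 (0.19), with the same rounded values with the block. With the block, the adjusted p in edgeR was 0.00893 for Slc38a1 and 0.0121 for Slc38a10, both then higher. Slc3a1 turned with DESeq2 (0.0052) and without the filter (0.022), and lay between -0.26 and 0.36 without a library. Slc38a3 lay between -0.99 and 0.44 without a library. The causes were not tested. Without TMM the summed level was 2576 and 2504 CPM. Without exon length, the ratios to Slc3a2 in GSI and washout were 0.853 and 1.32 for Slc7a5, 0.414 and 0.458 for Slc7a6, and 2.49 and 1.10 for Slc7a11. At this depth most untested members and the washout level of Slc6a19 lie near the limit of detection.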
